A study of Mus musculus with 14 samples.

Results

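The genes described here were the 3 members of the Gadd45 family, Gadd45a, Gadd45b and Gadd45g, and the 3 cyclin-dependent kinase inhibitors of the CIP/KIP family, Cdkn1a (p21), Cdkn1b (p27) and Cdkn1c (p57). They were picked by gene symbol among the 18193 genes that had a probe set with 1 symbol, and all 6 were measured, by 10 of 45037 probe sets. The choice was made with earlier results of these data known. Each gene was read at the probe set whose mean level across all arrays was highest, and its other probe sets are given beside it. These 6 probe sets had mean levels between 8.29 and 10.3 on the log2 scale, above the 40 percentile of all probe sets (6.65), below which a level is called dim here.

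Levels came from mammary glands of female C57BL/6 mice, 11 to 12 weeks old at arrival and kept for 1 week of acclimatization, whose ovaries were removed 7 days before a treatment of 3 h. The control group received vehicle alone. The other 9 groups received 17-beta-estradiol (E2) as a single subcutaneous injection, one of 4 blockers of the estrogen receptor, or E2 together with a blocker. The blockers were fulvestrant, a steroidal antiestrogen that also lowers the receptor protein, and the nonsteroidal ligands acolbifene (EM-652.HCl), raloxifene and tamoxifen (as citrate), which act as antagonists or partial agonists depending on the tissue. All groups lacked ovaries, so vehicle is a state of low circulating estrogen. Glands of the 8 mice of a group were pooled. Duplicate arrays exist for 4 groups (vehicle, E2, acolbifene and E2+acolbifene), and the other 6 groups have 1 array. Whether duplicates stem from separate pools is not said in the labels, so the p-values reflect array-to-array spread that could be purely technical. Doses of the blockers are not given here.

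Gadd45 proteins are small acidic proteins of the nucleus that are induced by DNA damage, growth arrest and cytokines. They bind the kinase Map3k4, which feeds the p38 and JNK pathways, and they also bind Pcna and the Cdk1-cyclin B1 complex and take part in DNA repair and demethylation. CIP/KIP proteins bind cyclin-CDK complexes and hold cells before S phase. Cdkn1a is the classical target of p53 and is also induced by glucocorticoids and by growth factors, Cdkn1b is controlled mainly through its degradation, and Cdkn1c is an imprinted gene expressed from the maternal allele. In the mammary gland, estradiol drives epithelial cells into the cell cycle after a lag that is longer than the interval studied here.

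The stretches before the start sites are shown because 3 of the 6 genes moved together after E2 and the others did not. RefSeq start sites of build GRCm38.p6 were found for 5 of the 6 genes, with a pair of starts for Cdkn1a. The 250 bases before the start lie at chr6:67037408-67037657 (minus strand) for Gadd45a, chr13:51846425-51846674 for Gadd45g, chr10:80929841-80930090 for Gadd45b, and chr17:29090729-29090978 and chr17:29093519-29093768 for the upstream and downstream starts of Cdkn1a, all on the plus strand except the first. Capitals mark the octamer ATTTGCAT, the E-box CACGTG, the TATA box TATAAA and the p53 site.
Gadd45a: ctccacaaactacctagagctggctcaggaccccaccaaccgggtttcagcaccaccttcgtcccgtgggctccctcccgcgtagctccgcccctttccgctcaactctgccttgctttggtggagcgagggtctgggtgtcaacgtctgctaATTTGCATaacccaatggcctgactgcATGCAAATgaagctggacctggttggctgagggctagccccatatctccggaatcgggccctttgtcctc
Gadd45g: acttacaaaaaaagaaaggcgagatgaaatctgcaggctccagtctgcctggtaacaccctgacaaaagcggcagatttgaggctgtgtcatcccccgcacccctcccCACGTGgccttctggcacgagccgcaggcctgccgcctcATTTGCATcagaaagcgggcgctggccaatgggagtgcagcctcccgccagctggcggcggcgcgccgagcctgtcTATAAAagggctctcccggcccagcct
Gadd45b: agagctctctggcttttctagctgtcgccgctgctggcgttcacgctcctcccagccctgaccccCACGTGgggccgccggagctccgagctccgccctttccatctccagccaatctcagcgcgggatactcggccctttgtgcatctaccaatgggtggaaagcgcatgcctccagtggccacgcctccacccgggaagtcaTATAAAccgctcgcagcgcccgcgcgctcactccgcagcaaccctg
Cdkn1a upstream start: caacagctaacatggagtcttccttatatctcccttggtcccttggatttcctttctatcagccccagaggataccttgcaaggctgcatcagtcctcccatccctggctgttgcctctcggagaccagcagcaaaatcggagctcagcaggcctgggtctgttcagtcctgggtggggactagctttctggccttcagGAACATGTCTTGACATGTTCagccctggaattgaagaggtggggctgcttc
Cdkn1a downstream start: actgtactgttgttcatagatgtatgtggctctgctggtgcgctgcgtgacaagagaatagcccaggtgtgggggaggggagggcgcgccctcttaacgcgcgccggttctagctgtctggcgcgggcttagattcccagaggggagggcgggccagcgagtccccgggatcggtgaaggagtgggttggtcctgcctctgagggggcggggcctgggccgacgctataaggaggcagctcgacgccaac
Both strands were searched for these and for 6 other motifs. The octamer, bound by Oct factors, matched at 2 places before Gadd45a and at 1 before Gadd45g, and 1.60% of 32851 windows of this length hold it. The E-box stood before Gadd45b and Gadd45g (6.02% of windows) and the TATA box before the same pair (12.4%). A p53 site of 20 bases with at most 1 mismatch lay before the upstream start of Cdkn1a, and 0.076% of windows hold one. The palindromic estrogen response element, GGTCA and TGACC with 3 free bases between them (0.064% of windows), the glucocorticoid response element, GNACA and TGTNC with the same spacing (0.387%), the AP-1 site TGANTCA (6.75%) and the cyclic AMP response element TGACGTCA (1.55%) were not in any of the 6 windows searched, that of Cdkn1b included. The single arm GGTCA, which is part of the full estrogen element, occurred before Gadd45b alone (35.2% of windows), and the CCAAT box CCAAT before Gadd45a, Gadd45b, Gadd45g and Cdkn1b (33.9%). The octamer, E-box and p53 site were chosen after the windows had been read, so these matches are descriptions.

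Several properties of the arrays touch the results. Array medians lay between 7.16 and 7.23. Raw-file names carried a code of unstated meaning, R136 on E2 array 1 and the 6 unpaired arrays, and R137 on the other 7. The next part of the raw-file name is shared by the arrays of a group, but the raloxifene array and both E2+acolbifene arrays also share theirs, for which the labels give no reason. They are kept as labelled here. Hybridization spikes averaged 9.86 to 10.04 on the E2 and unpaired arrays and 10.23 to 10.41 on the other 6. Between E2 and vehicle the split coincides with the treatment, whereas the 3 arrays of fulvestrant, raloxifene and tamoxifen alone have low spikes without E2 and both E2+acolbifene arrays have high spikes with it. As a sign of RNA quality, the Actb control read higher at its 3′ than at its 5′ end on every array, by 0.28 and 0.24 on the vehicle arrays, 0.41 and 0.43 on the E2 arrays and 0.25 to 0.41 on the other 10. Of the marker lists, 12 of 12 measured luminal, 10 of 11 basal and smooth muscle, 8 of 8 adipocyte and 15 of 16 skeletal muscle genes lay at or above the dim level, so the tissue held epithelium, fat and muscle together. The median of the muscle list relative to vehicle was -0.71 on E2 array 1, 0.50 on E2 array 2, 0.70 and 0.65 with E2+acolbifene, 0.73 with fulvestrant and -1.50 with E2+raloxifene. In such bulk samples, fewer cells of a type and less RNA per cell cannot be told apart.

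**Figure D1:**
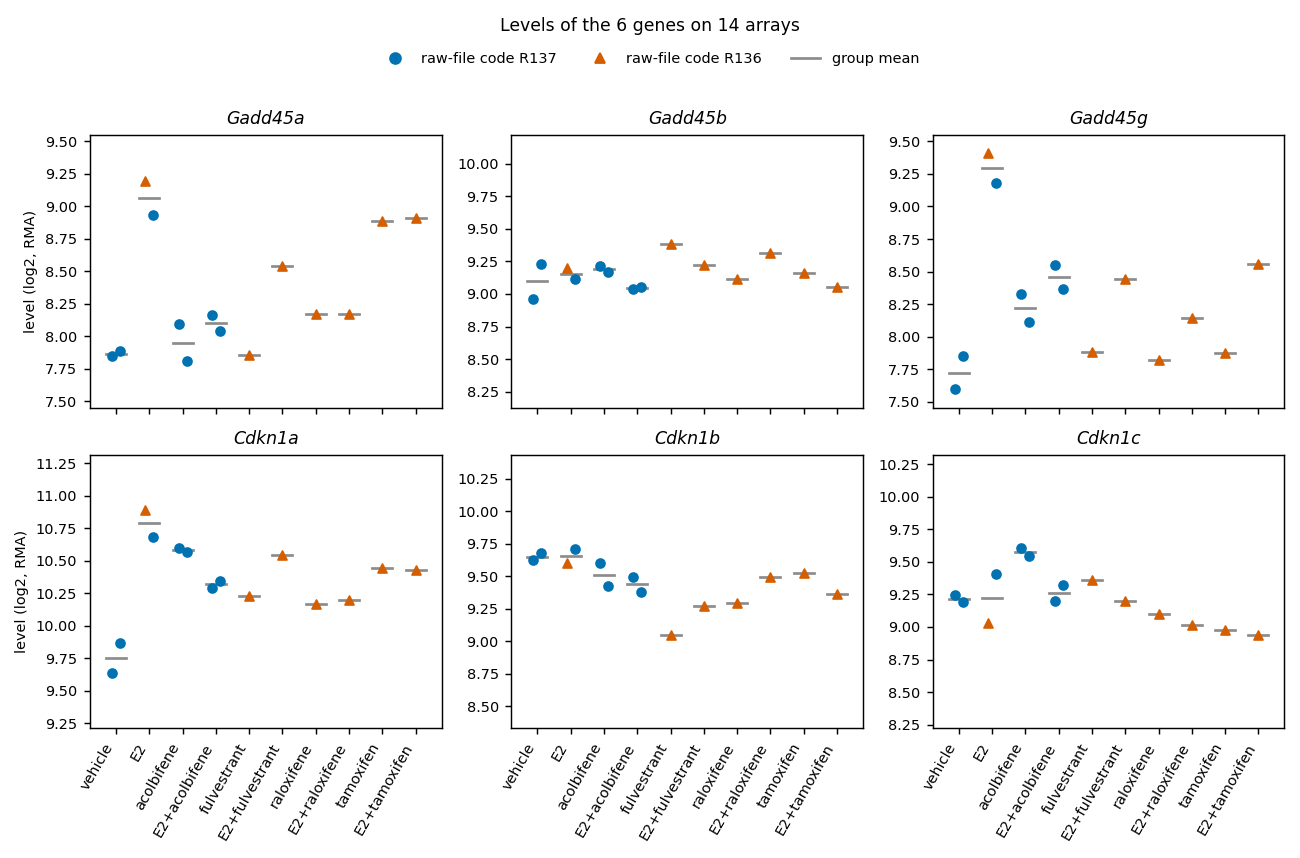
Level of each gene (log2, RMA) on every array, by treatment group. Points are arrays, circles with raw-file code R137 and triangles with R136, and grey lines are group means. Every panel spans the same number of log2 units. Gadd45a, Gadd45g and Cdkn1a were highest with E2, while Gadd45b stayed within 0.34 between its lowest and highest group means.

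The level plot shows that the 6 genes split into 3 that varied widely between treatments and 3 that varied less. The group means of Gadd45g spanned 1.57, those of Gadd45a 1.20 and those of Cdkn1a 1.04 on the log2 scale. Ranges of that size were exceeded by few of the genes at or above the dim level, as the 3 stood at the 99.6, 99.0 and 98.4 percentile. Cdkn1c spanned 0.64 and Cdkn1b 0.60, at the 91.5 and 89.2 percentile, and Gadd45b spanned 0.34, at the 36.1 percentile.

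Which of these growth-arrest genes estradiol moved within 3 h was read from the E2 and vehicle arrays. Gadd45g, Gadd45a and Cdkn1a rose and the other 3 did not pass the test. For Gadd45g, which belongs to the family's cytokine- and differentiation-induced members, the vehicle arrays read 7.60 and 7.85 and the E2 arrays 9.41 and 9.18. The pairs did not overlap, and the rise was 2.97-fold (1.57 on the log2 scale with an SE of 0.12, n = 2 arrays in either group, limma adjusted p = 6.26e-05). It ranked 25 by absolute change among the 45037 probe sets.

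Gadd45a, the p53- and stress-induced founder of the family, read 7.85 and 7.88 with vehicle and 9.19 and 8.93 with E2. Its rise was 2.29-fold (1.20 ± 0.12 on the log2 scale, SE, limma adjusted p = 0.000345), again with no overlap. Cdkn1a, which inhibits Cdk2 complexes and binds Pcna, read 9.63 and 9.87 with vehicle and 10.89 and 10.68 with E2, a rise of 2.05-fold (1.04 ± 0.11, limma adjusted p = 0.000413). For each of these 3 genes every E2 array lay above every vehicle array. The share of all probe sets that did so was not counted, so this is a description. The second probe set of Cdkn1a read 7.63 and 7.44 with vehicle and 7.71 and 7.78 with E2, a log2 difference of 0.21 that did not pass (limma adjusted p = 0.257). With both probe sets averaged the Cdkn1a rise was 0.62 (limma adjusted p = 0.000703).

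Thus 3 of 6 genes were higher, against 2.07% of all probe sets called higher in this comparison, and 3 were not called. As the genes were chosen with earlier results of these data known, this count is a description. The median log2 difference over the 6 was 0.55, beside -0.02 over all probe sets. Within the arrays that share code R137, E2 array 2 alone stood 1.46 above vehicle for Gadd45g, 1.07 for Gadd45a and 0.93 for Cdkn1a (limma adjusted p = 0.00256, 0.00773 and 0.00917). The rise was present on both E2 arrays. The muscle list was at -0.71 relative to vehicle on E2 array 1 and at 0.50 on E2 array 2, and its part in the rise was not tested. The basal and smooth muscle list was above vehicle on both E2 arrays (0.31 and 0.26), as was the Actb gap between 3′ and 5′ ends, and their part in the result was not tested. This list was above vehicle on every other treated array too, with 0.30 for raloxifene and 0.27 for E2+fulvestrant. On the 3 blocker arrays without E2, which share the low spikes of the E2 arrays, Gadd45g stood at 6.20% to 9.85% of its E2 rise. On the same arrays Gadd45a stood at -0.57% to 85.1% and Cdkn1a at 40.1% to 66.9% of theirs. The part of the spikes in the rise was not tested.

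Gadd45b, the member induced by TGF-beta and NF-kappaB signalling, read 8.96 and 9.23 with vehicle and 9.20 and 9.11 with E2. The pairs overlapped, and the log2 difference of 0.06 had a 95% interval from -0.16 to 0.28 (limma adjusted p = 0.8). Its other probe sets gave -0.01 and -0.07 (limma adjusted p = 0.97 and 0.799), the latter at a dim level. Cdkn1b, with 9.63 and 9.68 in vehicle and 9.60 and 9.71 after E2, had a difference of 0.003 (interval -0.21 to 0.21). At its second, dim probe set the difference was -0.13 (limma adjusted p = 0.578). For Cdkn1c the vehicle arrays at 9.24 and 9.19 lay between the E2 arrays at 9.03 and 9.41. Its higher E2 array was the one with the higher muscle list, whose part in this gap was not tested. The mean difference was 0.004 (interval -0.25 to 0.26).

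**Figure D2:**
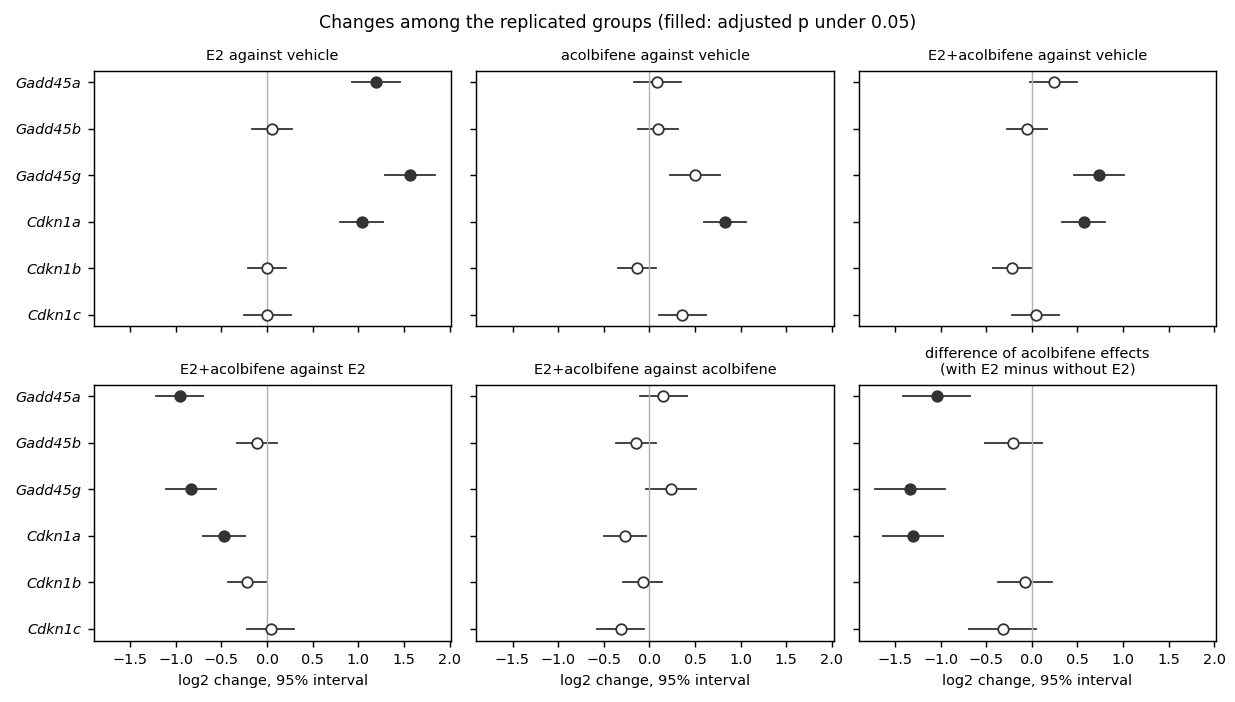
Log2 change of each gene in 6 comparisons among the 4 replicated groups, from a limma fit of 8 arrays. Points are estimates, bars are 95% intervals, and filled points had an adjusted p under 0.05. Gadd45a, Gadd45g and Cdkn1a are filled for E2 against vehicle, for E2+acolbifene against E2 and in the panel on the difference between acolbifene effects, and Cdkn1a alone is filled for acolbifene against vehicle.

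To see what acolbifene did by itself, the arrays without E2 were compared. Cdkn1a rose and no other member passed. Its acolbifene arrays read 10.60 and 10.56, both above the vehicle arrays, a rise of 1.78-fold (0.83 ± 0.11 on the log2 scale, SE, limma adjusted p = 0.00708). That is 1 of 6 genes, against 0.406% of all probe sets called higher. The call was lost without vehicle array 1 (0.71, limma adjusted p = 0.0844), acolbifene array 1 (0.81, limma adjusted p = 0.0772) or acolbifene array 2 (0.85, limma adjusted p = 0.0528). The second probe set gave 0.31 (limma adjusted p = 0.161).

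Gadd45g read 8.33 and 8.11 with acolbifene, above both vehicle arrays, but the difference of 0.50 (interval 0.22 to 0.77) did not pass (limma adjusted p = 0.0971). Cdkn1c had its highest 2 readings of the 14 arrays here, 9.60 and 9.55. They did not overlap with vehicle, and the difference of 0.36 (interval 0.10 to 0.62) missed the threshold too (limma adjusted p = 0.178). For Gadd45a the acolbifene arrays at 8.10 and 7.81 enclosed both vehicle arrays (difference 0.09, interval -0.17 to 0.35). Gadd45b read 9.21 and 9.17, within the vehicle pair, and Cdkn1b 9.60 and 9.43, just below it, with differences of 0.09 and -0.14 that did not pass (limma adjusted p = 0.69 and 0.508). The macrophage list was above vehicle on both acolbifene arrays (0.32 and 0.27), and its part in these values was not tested.

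The combination of E2 and acolbifene was then held against E2, to see how far the blocker kept the rise from appearing. This comparison shares the E2 arrays with the preceding one for E2, so a high reading on those arrays enters both. Gadd45a was 1.94-fold lower in the combination (-0.96 ± 0.12 on the log2 scale, SE, limma adjusted p = 0.00427). Its readings of 8.17 and 8.04 lay close to vehicle, with 0.24 left over the vehicle mean (interval -0.02 to 0.50, limma adjusted p = 0.293). Gadd45g was 1.78-fold lower (-0.84 ± 0.12, limma adjusted p = 0.0105), and its readings of 8.55 and 8.36 were still above both vehicle arrays. Against vehicle it was 1.66-fold higher (0.73 ± 0.12, limma adjusted p = 0.0257). Cdkn1a, at 10.29 and 10.34, was 1.38-fold lower than with E2 (-0.47 ± 0.11, limma adjusted p = 0.0389) and 1.48-fold higher than with vehicle (0.57 ± 0.11, limma adjusted p = 0.0365). At its second probe set these differences were -0.09 and 0.12, and neither passed (limma adjusted p = 0.59 and 0.515). Averaging both probe sets gave -0.28 and 0.34 in these comparisons (limma adjusted p = 0.0445 and 0.0278). Gadd45b read 9.04 and 9.05, Cdkn1b 9.49 and 9.38 and Cdkn1c 9.20 and 9.32 in the combination, and none of the 3 passed against E2 or vehicle.

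In total 3 of 6 genes were lower with E2+acolbifene than with E2, against 2.03% of probe sets called lower, and 2 of 6 were higher than with vehicle, against 0.453% called higher. These calls differed in how much they rested on single arrays. Gadd45a was called lower than with E2 in each alternative fit, with a limma adjusted p of at most 0.0483. Gadd45g lost that call without E2 array 1 (-0.72, limma adjusted p = 0.0628, the value within code R137) and without E2+acolbifene array 2 (-0.74, limma adjusted p = 0.0871). Cdkn1a lost it without any one of E2 array 1 (-0.37, limma adjusted p = 0.138), E2 array 2 (-0.57, 0.0903 on the same test), E2+acolbifene array 1 (-0.44, 0.114) or E2+acolbifene array 2 (-0.49, 0.157). Against vehicle, Gadd45g lost its call without either vehicle array (0.61 and 0.86) or either E2+acolbifene array (0.64 and 0.83), with limma adjusted p from 0.0832 to 0.146. Cdkn1a lost the call against vehicle without vehicle array 1 or 2 (0.45 and 0.68), either acolbifene array (0.57 each) or E2+acolbifene array 1 or 2 (0.59 and 0.54), with limma adjusted p from 0.0525 to 0.212. Both combination arrays had a muscle list above vehicle, and its part in these differences was not tested.

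The difference of the acolbifene effects with and without E2 tests whether the blocker acted on a gene differently when E2 was present. It passed for 3 of 6 genes, all with a lower effect under E2, against 2.92% of probe sets. It was -1.33 ± 0.18 for Gadd45g, -1.30 ± 0.15 for Cdkn1a and -1.04 ± 0.17 for Gadd45a on the log2 scale (SE, n = 2 arrays in each of 4 groups, limma adjusted p = 0.00569, 0.00264 and 0.0121). For Cdkn1a this means that acolbifene added 0.83 over vehicle and took 0.47 from the E2 level. At the second Cdkn1a probe set the difference was -0.40 and did not pass (limma adjusted p = 0.103). With both probe sets averaged the Cdkn1a difference was -0.85 (limma adjusted p = 0.00279). The Gadd45a value lost its call without vehicle array 1 (-1.02, limma adjusted p = 0.0557) or without E2+acolbifene array 2 (-0.98, limma adjusted p = 0.0632). Gadd45b (-0.20), Cdkn1b (-0.08) and Cdkn1c (-0.32) were not called.

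With acolbifene as the baseline, adding E2 moved none of the 6 past the threshold in limma (0 called, 2 with an unadjusted p under 0.05), where 9.20% of all probe sets were called. With dim probe sets removed 0 were called as well, where 20.8% of probe sets were called. Gadd45g was 0.24 higher (interval -0.04 to 0.51), Gadd45a 0.15 higher (-0.11 to 0.41), while Cdkn1a differed by -0.26 (-0.49 to -0.03) and Cdkn1c by -0.32 (-0.57 to -0.06) on the log2 scale, with limma adjusted p from 0.102 to 0.411. Gadd45b and Cdkn1b differed by -0.14 and -0.075 (limma adjusted p = 0.355 and 0.632).

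Fulvestrant, raloxifene and tamoxifen had 1 array each with and without E2, so the values are those of single pools. They are placed on a scale where the vehicle mean is 0% and the E2 mean 100% of the log2 rise, and the scale is a description. Gadd45a had the widest spread between blockers. It read 7.86 with fulvestrant, 8.17 with raloxifene and 8.88 with tamoxifen, at -0.57%, 25.6% and 85.1% of the E2 rise. With E2 added the readings were 8.54, 8.17 and 8.91, at 56.6%, 25.6% and 87.0%. Tamoxifen thus read near the E2 level with or without E2, raloxifene read alike with and without E2, and fulvestrant read at the vehicle level alone and above it with E2. The keratinocyte list (6 of 8 genes at or above the dim level) stood 0.86 above vehicle on the E2+fulvestrant array, its highest of the 14, and its part in that reading was not tested.

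Gadd45g gave another order. Without E2 the 3 blockers read 7.88, 7.82 and 7.87, at 9.85%, 6.20% and 9.40% of the E2 rise, all close to the higher vehicle array. Gadd45g lay above both vehicle arrays on 11 of the 12 other arrays, as 6.30% of probe sets did on at least 11. With E2 added fulvestrant read 8.44, raloxifene 8.14 and tamoxifen 8.56, at 45.7%, 26.8% and 53.3%. All 3 combinations lay above the corresponding blocker alone and below both E2 arrays. Acolbifene alone stood at 38.6% and 24.8% and E2+acolbifene at 52.8% and 40.8%.

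At the Cdkn1a probe set with the highest mean, each of the 12 treated arrays read higher than either vehicle array, as was true of 2.48% of all probe sets. Fulvestrant read 10.23, raloxifene 10.17 and tamoxifen 10.44, at 46.0%, 40.1% and 66.9% of the E2 rise. The combinations with E2 read 10.54, 10.20 and 10.43, at 76.1%, 43.1% and 65.6%. At the second Cdkn1a probe set E2+acolbifene array 2 read 7.61, below vehicle array 1 at 7.63. The highest reading there was 7.93 with tamoxifen, beside 7.71 and 7.78 with E2. Treatment and a difference of the vehicle arrays from all others cannot be told apart for this gene.

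**Figure D3:**
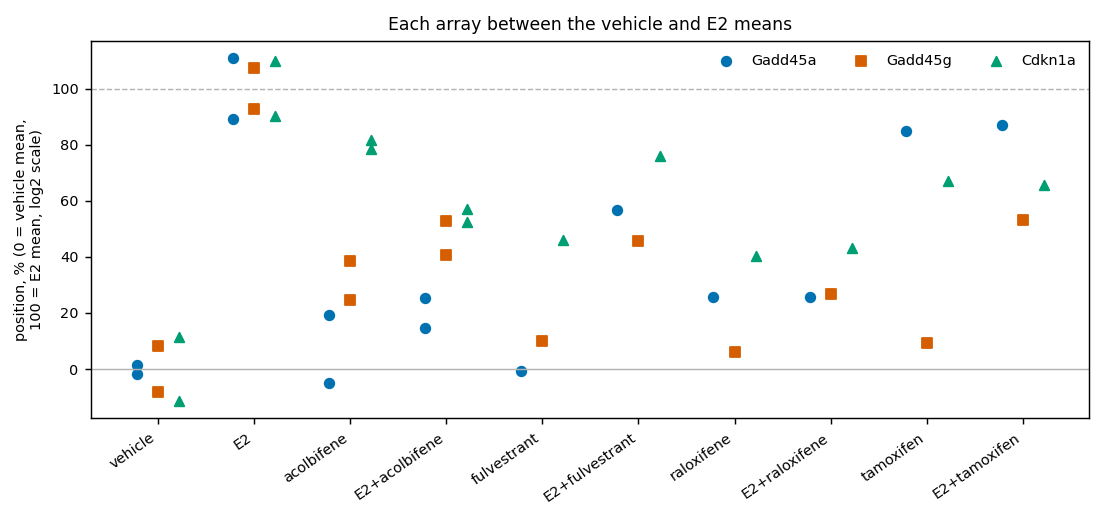
Position of each array between the mean of the vehicle arrays (0%) and the mean of the E2 arrays (100%), on the log2 scale, for the 3 genes that rose with E2. Points are single arrays. Tamoxifen alone lies at 85.1% for Gadd45a and at 9.40% for Gadd45g, and every array other than vehicle is above 40% for Cdkn1a.

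These single arrays were tested with limma in 1 model of the 14 arrays that includes the raw-file code and takes the spread of the duplicated groups for the unpaired ones as well. Comparisons with E2 then rest on E2 array 1, and comparisons with vehicle pass through the E2 pair. Over 18 such comparisons 1 member value was called, against 0.0801% of all probe-set values: Gadd45g was lower with E2+raloxifene than with E2 (-1.26 ± 0.17 on the log2 scale, SE, limma adjusted p = 0.0378, with 0.0622% of probe sets called lower). That call was lost without either vehicle array, either acolbifene array or either E2+acolbifene array, with limma adjusted p from 0.0512 to 0.059. In the same comparison Gadd45a differed by -1.02 (interval -1.37 to -0.67, limma adjusted p = 0.0691) and Cdkn1a by -0.69 (interval -1.01 to -0.37, limma adjusted p = 0.207). The muscle list was lowest on this array, and its part in these values was not tested. Against vehicle, Cdkn1a stood 0.27 higher with fulvestrant, 0.21 with raloxifene and 0.49 with tamoxifen in the fit. The plain differences were 0.48, 0.42 and 0.69. With E2 added the fit gave 0.58, 0.24 and 0.47, beside plain differences of 0.79, 0.45 and 0.68. The 95% intervals for fulvestrant, raloxifene and E2+raloxifene reached below the vehicle level.

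For E2+tamoxifen against E2, Gadd45g differed by -0.85 (interval -1.23 to -0.46, limma adjusted p = 0.165), Cdkn1a by -0.46 (interval -0.78 to -0.14, limma adjusted p = 0.23) and Gadd45a by -0.29 (interval -0.64 to 0.06, limma adjusted p = 0.418). For E2+fulvestrant against E2 the same 3 genes differed by -0.97, -0.35 and -0.65 (limma adjusted p = 0.256, 1 and 0.723). Gadd45b, Cdkn1b and Cdkn1c differed from E2 by -0.14, -0.24 and -0.094 with E2+tamoxifen and by 0.027, -0.33 and 0.17 with E2+fulvestrant. In each of these 2 comparisons limma called 0 members, with 2 and 4 at an unadjusted p under 0.05, and called 0.0133% and 0.0222% of all probe sets. Tamoxifen alone stood 0.76 above vehicle for Gadd45a in the fit (interval 0.29 to 1.22, limma adjusted p = 0.943), and the plain difference of the readings was 1.02. Adding E2 to tamoxifen moved Gadd45g by 0.69 (interval 0.30 to 1.07, limma adjusted p = 0.24) and Gadd45a by 0.02 (interval -0.33 to 0.37). Adding E2 to fulvestrant moved Gadd45a by 0.68 (interval 0.33 to 1.03, limma adjusted p = 0.174) and Gadd45g by 0.56 (interval 0.18 to 0.95). Without the code term 10 member values were called, tamoxifen against vehicle for Gadd45a among them (1.02, limma adjusted p = 0.0304), and an intensity trend in the variance gave 10 as well, so the number of calls among single arrays depends on the model.

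The blockers were also set against each other at the shared time of 3 h, in 6 pairs of single arrays with doses not stated. The largest gap between blockers given alone was for Gadd45a, which was -1.02 with fulvestrant, the steroidal compound, relative to tamoxifen, a triphenylethylene (interval -1.37 to -0.67, limma adjusted p = 0.0841). Raloxifene, a benzothiophene, differed from tamoxifen by -0.71 (interval -1.06 to -0.36, limma adjusted p = 1), and fulvestrant from raloxifene by -0.31 (interval -0.66 to 0.04). With E2 present, raloxifene differed from tamoxifen by -0.73 for Gadd45a (interval -1.08 to -0.38, limma adjusted p = 0.175). For Gadd45g the gaps between the blockers alone were within 0.06, with intervals reaching 0.44 on either side. None of the 36 member values in these pairs passed in limma, 9 had an unadjusted p under 0.05, and 0.0463% of all probe-set values in the same pairs were called.

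Gadd45b, Cdkn1b and Cdkn1c had no called value with the single blockers. Gadd45b ranged from 9.05 with E2+tamoxifen to 9.38 with fulvestrant on the unpaired arrays, and the gap between any neighbouring group means (at most 0.10) was smaller than the gap within the vehicle pair (0.26). Cdkn1b was lowest with fulvestrant (9.05), followed by E2+fulvestrant (9.27), raloxifene (9.29), E2+tamoxifen (9.36), E2+raloxifene (9.49) and tamoxifen (9.52). It lay below both vehicle arrays on 11 of the 12 other arrays, as 8.20% of probe sets did on at least 11. The lymphocyte list, with 9 of 9 measured genes at or above the dim level, had a median below vehicle on all 12 (-0.06 to -0.37), and its part in the Cdkn1b levels was not tested. Fulvestrant differed from vehicle by -0.49 for Cdkn1b in the fit (interval -0.89 to -0.09, limma adjusted p = 0.845), and the plain difference was -0.60. At the dim second probe set of Cdkn1b the fulvestrant array read 5.17, between the vehicle arrays at 5.28 and 5.07.

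Cdkn1c was highest with acolbifene (9.58 ± 0.04, SD, n = 2), then with fulvestrant (9.36), E2+acolbifene (9.26 ± 0.08, SD, n = 2), E2 (9.22 ± 0.27, SD, n = 2) and vehicle (9.22 ± 0.04, SD, n = 2). E2+fulvestrant followed at 9.20, and the lowest were raloxifene (9.10), E2+raloxifene (9.02), tamoxifen (8.98) and E2+tamoxifen (8.94). No neighbours in this order differed by more than the gap of 0.38 within the E2 pair. Fulvestrant differed from tamoxifen by 0.38 (interval 0.10 to 0.67, limma adjusted p = 1). The muscle list was above vehicle with fulvestrant and below it with E2+raloxifene, and its part in the order of Cdkn1c was not tested.

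The order of group means separated few neighbours for the genes that rose. For Gadd45g, E2 (9.29 ± 0.16, SD, n = 2) stood 0.73 above the next group, E2+tamoxifen, a gap larger than any within a pair (0.25), and E2+raloxifene stood 0.27 above fulvestrant. For Gadd45a, tamoxifen exceeded E2+fulvestrant by 0.34 and E2+fulvestrant exceeded raloxifene by 0.37, while E2 (9.06 ± 0.19, SD, n = 2) and E2+tamoxifen differed by less than the largest pair gap (0.29). For Cdkn1a the only gap above the pair gap of 0.24 was that between raloxifene and vehicle (0.42). For Cdkn1b it was the step of 0.22 from E2+fulvestrant down to fulvestrant, against a largest pair gap of 0.17.

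Across the 14 arrays Gadd45g went with Cdkn1a (Pearson r = 0.79) and Gadd45a (r = 0.72), and Gadd45a with Cdkn1a (r = 0.65). Gadd45b had r = -0.10 with Gadd45a and -0.06 with Gadd45g. These coefficients describe arrays that share treatments and are no test. Among 13312 genes at or above the dim level, those most like Gadd45g over the 14 arrays were Spint1, an inhibitor of serine proteases (r = 0.92), Ctr9, a subunit of the PAF1 complex (r = 0.92), and Ngfr, the low-affinity neurotrophin receptor (r = 0.91). Those most like Gadd45a were Liph (r = 0.90), the potassium channel Kcnk1 (r = 0.89) and the receptor P2ry14 (r = 0.89). Cdkn1a was most like Gpr182 (r = 0.93), the matricellular Ccn2 (r = 0.91) and the ubiquitin-conjugating Ube2h (r = 0.91). For Gadd45b they were Ap2a1, Anxa1 and Abhd4 (r = 0.88, 0.85 and 0.84), for Cdkn1b H2-Ob, Ercc4 and Gimap1 (r = 0.91, 0.86 and 0.86), and for Cdkn1c Galnt7, Rhoj and Gpt2 (r = 0.94, 0.92 and 0.90).

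The pathways around the 6 genes were counted in 7 lists that held 110 measured genes. The lists were chosen with earlier results of these data known. Among other targets of p53, 1 of 21 rose after E2, the cell adhesion gene Perp (0.77), and 1 fell, the kinase Plk2 (-0.59). The list median was -0.03 beside -0.02 over all probe sets, of which 2.07% were called higher and 1.67% lower. For E2+acolbifene against acolbifene 1 of the 21 was higher, Perp (0.58), and 4 were lower, among them Sesn1 (-0.43), Zmat3 (-0.41) and Ccng1 (-0.36). The list median was -0.19, and 9.20% of all probe sets were called in either direction. With dim probe sets removed that share was 20.8%, so the count in this list is not read as a result about p53 targets. Zmat3 also passed in the difference of acolbifene effects (-0.72), where 2.92% of probe sets were called lower. Of 22 INK4 inhibitors, cyclins and CDKs, Ccne1, the cyclin of S-phase entry, rose after E2 (0.44) and the D-type cyclin Ccnd2 fell (-0.38), against the same 2.07% and 1.67%. In the Gadd45 partner and p38/JNK list 1 of 14 rose after E2, against 2.07%, Dusp1 (0.47), a phosphatase that switches off p38 and JNK. Dusp1 rose with acolbifene as well (0.45, limma adjusted p = 0.0473), where 0.406% of probe sets were called higher.

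Transcription factors that act on the members included 5 of 24 that rose after E2, against 2.07% of all probe sets. Among them were Cebpd (0.75), the p53 relative Trp63 (0.64), Egr1 (0.52) and Myc (0.48), a repressor of Cdkn1a. With E2+acolbifene, 3 of the 24 were lower than with E2, Egr1 (-0.76), Myc (-0.45) and Cebpb (-0.39), and Brca1 was higher (0.41) at a dim level. In this comparison 2.03% of probe sets were called lower and 1.63% higher. Of 11 other antiproliferative genes 2 rose after E2, against 2.07%, Tob2 (0.68) and the growth-arrest gene Gas6 (0.57). The same 2 were lower in the combination than with E2 (-0.45 and -0.51), against 2.03%. Among 6 genes of p27 degradation Cks1b, the cofactor of the p27 ubiquitin ligase, was lower with E2+acolbifene than with E2 (-0.48, limma adjusted p = 0.0325), again against 2.03%.

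Of 12 glucocorticoid-responsive genes 9 rose after E2, against 2.07% of all probe sets, with a list median of 0.77, among them the metallothionein Mt2 (1.40), the EGF receptor inhibitor Errfi1 (1.25), Pdk4 (1.03) and Ddit4 (0.86), which restrains mTOR. With acolbifene 7 of 12 rose, against 0.406%, with a median of 0.67, including Fkbp5 (1.09), Zbtb16 (0.97), Ddit4 (0.77) and Per1 (0.69). With E2+acolbifene against E2, Mt2 (-0.80) and Errfi1 (-0.46) were lower and Zbtb16 (0.44) higher, against 2.03% and 1.63%. With E2+acolbifene 8 of 12 were higher than with vehicle, against 0.453%, with a median of 0.56. The difference of the acolbifene effects with and without E2 was called lower for 7 of the 12, against 2.92%, with a median of -0.75. The 3 comparisons with vehicle share its arrays, which also enter the difference, and no list was tested as a whole. This list, like the others, was chosen with earlier results of these data known, so its counts are descriptions.

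**Figure D4:**
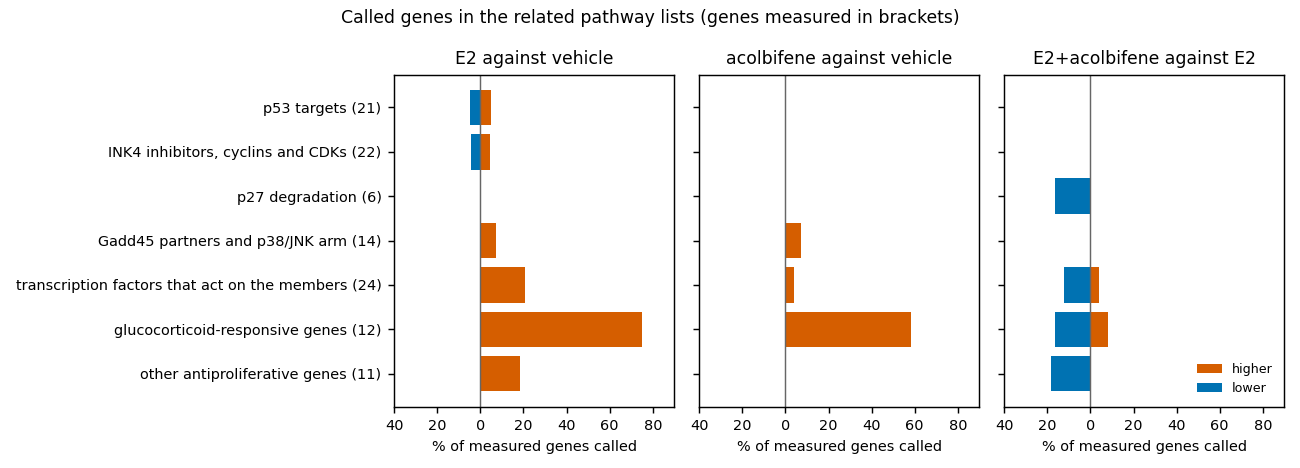
Share of the measured genes of each list called higher (orange, to the right of 0) or lower (blue, to the left) in 3 comparisons, with the number measured in brackets. The glucocorticoid-responsive list has 9 of 12 genes higher after E2 and 7 of 12 after acolbifene, while the p53 list has 1 of 21 higher and 1 lower after E2. Lists were chosen with earlier results of these data known.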

How the data were processed

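RNA from pooled mammary glands was measured on 14 arrays, 20 ug of total RNA labelled per array, per the labels' protocols. The deposited values are log2 levels from RMA (per the submitters' processing notes; version not given here). RMA normalizes across arrays and can compress the folds of dim probe sets. The series text names U74Av2 arrays, while the 45101 probe sets belong to a later mouse genome array, whose platform annotation supplied the symbols. After 64 control probe sets were left out, 34945 of 45037 carried 1 symbol, 932 several and 9160 none.

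Groups came from the treatment labels. Tests used limma 3.58.1 (R 4.3.3) with adjustment by Benjamini-Hochberg over all 45037 probe sets at 0.05: 6 comparisons in a fit of the 8 paired arrays, and 18 with an unpaired array in a fit of 14 arrays that adds the raw-file code. The fits were tested on simulated data. The number of arrays limits the precision. Replicate numbers were not treated as pairs in the main fits. Deviations of replicate 1 correlated between groups by -0.12 to 0.12, which does not settle whether the numbers pair the samples.

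All 6 genes were tested and could be named in every comparison, list genes only if called (at most 4 a list with the largest change), and for each gene the 3 most alike by Pearson correlation. The genes and lists were chosen with earlier results of these data known. The E2 dose is not printed, as its unit is in doubt. Promoters are RefSeq sequences of GRCm38.p6. Alternatives were the code, an intensity trend, removal of dim probe sets, another quantile normalization, all 14 arrays, single replicates left out, a replicate block and the mean of a gene's probe sets.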

Additional observations from a re-analysis of the deposited data

Results flagged for a closer look

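The acolbifene effect differed with and without E2 for 3 of the genes, by the test of the difference itself. The effect with E2 minus that without was -1.33 for Gadd45g, -1.30 for Cdkn1a and -1.04 for Gadd45a on the log2 scale (limma adjusted p = 0.00569, 0.00264 and 0.0121, 2 arrays per group). Acolbifene against vehicle had given 0.50, 0.83 and 0.09 for these genes, and E2+acolbifene against E2 -0.84, -0.47 and -0.96. At the second probe set of Cdkn1a the difference of the effects was -0.40 and did not pass (limma adjusted p = 0.103). All 4 groups enter the difference, and among these 8 arrays the E2 arrays had lower hybridization spikes than the other 6 (10.01 and 10.04 against 10.23 to 10.41). E2+acolbifene carries E2 with spikes of 10.38 and 10.23, and the part of the spikes in the difference was not tested.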

How the results depend on the processing

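The rises of Gadd45a, Gadd45g and Cdkn1a after E2 were called in each of 15 alternatives, at 1.07 to 1.33, 1.44 to 1.70 and 0.62 to 1.15 on the log2 scale. Of 191 recomputed values of 13 called changes, 158 kept their call, 33 lost it and 0 reversed, and of 360 values of 24 changes not called, 4 became called. With single arrays left out the number of genes called was 3 for E2 against vehicle, 0 to 1 for acolbifene, 1 to 3 for E2+acolbifene against E2, 0 to 2 for E2+acolbifene against vehicle, 0 for E2+acolbifene against acolbifene, 2 to 3 for the difference of the acolbifene effects and 0 to 1 over the 18 comparisons with an unpaired array. Another quantile normalization left 2 genes called for E2+acolbifene against E2, without Cdkn1a. The raw-file code left 1 gene called for E2+acolbifene against E2 (Gadd45a). An intensity trend called 2 for acolbifene (Gadd45g added), 2 for E2+acolbifene against acolbifene (Cdkn1a and Cdkn1c, limma adjusted p = 0.0493 and 0.0483) and 10 over the 18 comparisons. The mean of a gene's probe sets called 1 for E2+acolbifene against acolbifene (Cdkn1a, -0.23) and 2 over the 18 comparisons, which gave 10 without the code term, 3 with dim probe sets removed and 0 after another quantile normalization. The replicate block left 1 gene called for E2+acolbifene against vehicle, since Cdkn1a had limma adjusted p = 0.0538, and Cdkn1a also lost its call against E2 (limma adjusted p = 0.0552), while the block changed no other call. Whether the replicate numbers pair the samples is not known.

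Values that changed sign were small and not called in either fit. With the mean of probe sets these were -0.0096 for Gadd45b and -0.063 for Cdkn1b after E2 and 0.025 for Cdkn1b in the difference of acolbifene effects. Another quantile normalization turned Cdkn1b to -0.00054 after E2, 0.081 for E2+acolbifene against acolbifene and 0.081 for the difference, and Gadd45b to 0.025 for E2+acolbifene against vehicle. The code turned Cdkn1c to -0.15 for E2+acolbifene against E2. With single arrays left out, E2 against vehicle ranged from -0.074 to 0.19 for Gadd45b, -0.053 to 0.060 for Cdkn1b and -0.18 to 0.19 for Cdkn1c. Acolbifene against vehicle ranged from -0.058 to 0.23 for Gadd45a and -0.037 to 0.23 for Gadd45b, and E2+acolbifene against E2 from -0.15 to 0.23 for Cdkn1c. E2+acolbifene against vehicle ranged from -0.18 to 0.081 for Gadd45b and -0.014 to 0.10 for Cdkn1c. Cdkn1b ranged from -0.16 to 0.012 for E2+acolbifene against acolbifene and from -0.16 to 0.0082 for the difference. The cause was not tested.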
